A study of Mus musculus with 2 samples.

Results

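Retnla and Ear2 mononuclear phagocytes are phagocytes that carry transcripts of Retnla, of Ear2 or of both. They were chosen by a gate on unique molecular identifier counts (UMIs, each 1 captured transcript). A cell was a member when Retnla and Ear2 together gave at least 5 UMIs, Lyz2 at least 10 UMIs and Csf1r at least 1 UMI, with S100a8 and S100a9 together under 0.3% of its UMIs and Cd3d, Cd3e and Cd3g together at no more than 1 UMI. The gate found 58 members among the 13977 cells kept in the series. Of these, 39 came from mouse prostate tumour and 19 from normal adjacent tissue.

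The series holds 2 droplet single-cell libraries of mouse prostate, 1 from tumour and 1 from normal adjacent tissue, each loaded with sorted CD45-positive and CD45-negative cells after collagenase and trypsin digestion. The sources used here state no strain, age or genotype, and the normal adjacent library is also titled as healthy. With 1 library per tissue there is no replicate check and no test between tissues: intervals below are exact 95% intervals that cover counting error only, and a difference between the tissues cannot be told apart from a difference between the 2 libraries. The sorted mixture also sets every share of cells.

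Retnla encodes resistin-like alpha, a small secreted cysteine-rich protein that mouse macrophages make in response to the type 2 cytokines interleukin-4 and interleukin-13 through the transcription factor STAT6. It is a marker of alternative activation in mice and of macrophages recently derived from monocytes in several body cavities and tissues. Ear2 encodes an eosinophil-associated ribonuclease of the RNase A family, which despite its name is also expressed by mouse monocytes, above all by the nonclassical monocytes that patrol blood vessels. Lyz1 and Lyz2 are neighbouring lysozyme genes: Lyz2 is the general lysozyme of myeloid cells, while Lyz1 is best known from intestinal Paneth cells.

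The promoters of the 2 genes that chose the members are shown because the gate joins genes that lay in part in different cells. Each sequence is the 250 bases before the gene's start (RefSeq, GRCm38.p6), for Retnla chr16:48842359-48842608 on the plus strand and for Ear2 chr14:44102404-44102653 on the plus strand. Capitals mark the spaced palindrome TTCNNNNGAA, a form that STAT proteins including STAT6 bind.
Retnla: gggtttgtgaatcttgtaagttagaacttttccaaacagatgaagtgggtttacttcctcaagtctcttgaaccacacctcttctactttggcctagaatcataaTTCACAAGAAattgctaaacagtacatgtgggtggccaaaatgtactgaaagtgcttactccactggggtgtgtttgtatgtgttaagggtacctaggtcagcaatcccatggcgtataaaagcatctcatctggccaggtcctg
Ear2: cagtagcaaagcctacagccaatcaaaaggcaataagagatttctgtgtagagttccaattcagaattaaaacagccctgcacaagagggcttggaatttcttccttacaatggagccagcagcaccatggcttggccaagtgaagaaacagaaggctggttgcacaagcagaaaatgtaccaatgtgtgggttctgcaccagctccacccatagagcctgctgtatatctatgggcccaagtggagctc
The Retnla window held 1 match, which began 145 bases before the start, and the Ear2 window held none. The motif reads the same on both strands, and 5.85% of 32851 promoters of this length held it. A match is a description of these letters and not a site shown to be bound.

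The last 100 bases before Lyz1 (chr10:117292869-117292968, minus strand) and Lyz2 (chr10:117282273-117282372, minus strand) are shown because the pair is close in sequence and yet was unequally shared among the members. Capitals mark the positions at which they differ.
Lyz1: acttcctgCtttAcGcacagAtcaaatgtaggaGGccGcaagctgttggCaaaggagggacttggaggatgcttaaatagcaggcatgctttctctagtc
Lyz2: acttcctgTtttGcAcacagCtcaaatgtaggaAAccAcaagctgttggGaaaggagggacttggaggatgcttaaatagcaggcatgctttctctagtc
The pair had the same base at 92 of these 100 positions, and over the whole 250 bases 60.8% of positions were the same. Near the 3′ end, where droplet reads fall, 19.1% of the 50-base windows in the last 400 transcript bases of Lyz1 were also found in Lyz2, and 27.4% of those of Ear2 were found in Ear1. Reads from such windows cannot be assigned to 1 gene, whereas no window of Retnla was shared with Retnlg, Retnlb or Retn.

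Across the libraries the cells kept gave median depths of 6654.5 UMIs in tumour and 6383 UMIs in normal adjacent tissue. Members were deeper than the average cell, with medians of 14367 UMIs (3146 to 38392) in tumour and 9976 UMIs (3194 to 72752) in normal adjacent tissue. The libraries shared 18 cell barcodes, and no member carried one of them. Members made up 0.502% of kept cells in tumour (exact interval 0.357 to 0.686%) and 0.306% in normal adjacent tissue (0.184 to 0.477%). The difference of 0.196 percentage points had an interval from -0.0219 to 0.41, so it was not detectable at this number of cells. C1q-high cells, in which C1qa, C1qb and C1qc made up at least 0.5% of UMIs, were by comparison 25.9% of tumour cells and 22.0% of normal adjacent cells.

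The members fell into those with Retnla and those with Ear2 alone. At 5 UMIs of either gene, 14 tumour members and 6 normal adjacent members had both, 13 and 3 had Retnla only, and 11 and 9 had Ear2 only. In each library 1 further cell reached 5 UMIs through the sum alone. Cells with at least 5 Retnla UMIs, called Retnla members here, were 69.2% of tumour members and 47.4% of normal adjacent members, a difference of 21.9 percentage points with an interval from -4.27 to 45.3. As a share of all kept cells, Retnla members were 0.348% in tumour and 0.145% in normal adjacent tissue (difference 0.203 points, 0.0330 to 0.375), whereas Ear2-only members were 0.142% and 0.145% (difference -0.00334 points, -0.148 to 0.128). The first of these intervals did not include 0 and the second did. Among cells that passed all gates but that on Retnla and Ear2, Retnla members were 3.72% in tumour and 2.13% in normal adjacent tissue. That difference of 1.59 points had an interval from -0.605 to 3.52, which included 0. All members were 5.38% and 4.50% of these cells, a difference of 0.877 points (-1.93 to 3.35).

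**Figure D1:**
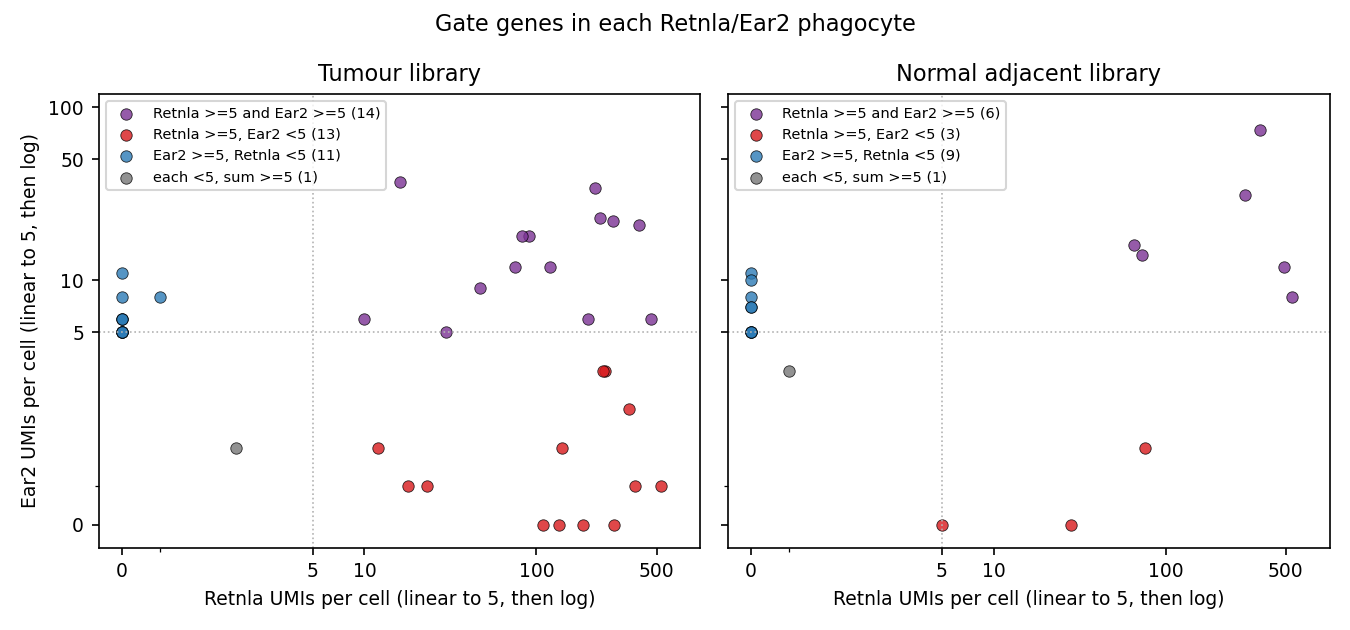
UMIs of Retnla (horizontal axis) and Ear2 (vertical axis) in each member, with tumour on the left and normal adjacent tissue on the right; both axes are linear up to 5 UMIs and logarithmic above, and each point is 1 cell, coloured by the gene or genes that reached 5 UMIs. Retnla spans 0 to 529 UMIs in tumour and 0 to 543 UMIs in normal adjacent tissue, and the Ear2-only cells sit at 5 to 11 UMIs of Ear2.

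Retnla was held by few cells at high counts. Tumour members had a median of 75 Retnla UMIs (0 to 529), and normal adjacent members a median of 1 UMI (0 to 543). The 17 tumour members with at least 100 Retnla UMIs held 91.7% of the Retnla UMIs of the tumour members, and the 4 such normal adjacent members held 87.1%. The highest tumour cell had 529 Retnla UMIs among only 4549 UMIs in all, or 116289 CPM (UMIs scaled to a total of 1000000 per cell or group), and gave 10.8% of the tumour members' Retnla. The highest normal adjacent cell gave 28.3%. Ear2 counts were lower, with a maximum of 37 UMIs in tumour and 74 UMIs in normal adjacent tissue and medians of 5 and 7 UMIs, and the highest cell gave 11.6% and 33.0% of the members' Ear2. Summed over members, Retnla stood at 7692 CPM in tumour and 5030 CPM in normal adjacent tissue, and Ear2 at 501 and 586 CPM. These levels follow from the gate and are a description only.

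At the threshold of the gate, cells just inside were unlike the bulk of the members. In tumour, the 6 cells with exactly 5 UMIs of Retnla and Ear2 together had Lyz1 at 39.5 CPM and the 3 cells with 4 UMIs, just outside, at 24.9 CPM, against 1416 CPM in the 30 cells with 7 or more. In normal adjacent tissue, the 6 cells at 5 UMIs had Lyz1 at 38.3 CPM and the 6 cells at 4 UMIs at 18.9 CPM, against 429 CPM in the 13 cells with 7 or more. Of the cells at 5 UMIs, 1 tumour cell and 2 normal adjacent cells had any Retnla.

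The gates on Cd3 and calprotectin kept most Retnla-rich barcodes out. Of the barcodes with at least 5 Retnla UMIs, 27 of 110 in tumour and 9 of 56 in normal adjacent tissue were members, while 56 and 43 failed the Cd3 gate. Those that failed it had median depths of 32771 UMIs in tumour and 46392 UMIs in normal adjacent tissue, with medians of 16.5 and 34 Cd3 UMIs, and Retnla at 2727 and 2697 CPM. Of C1q-high cells, 975 of 2015 in tumour and 755 of 1369 in normal adjacent tissue failed the Cd3 gate too. Failing it was thus not confined to Retnla-rich barcodes. Members held 37.4% of the tumour library's Retnla UMIs and 22.0% of those of the normal adjacent library. The Retnla members are thus the subset of the Retnla-rich barcodes that passed every gate, and what the others are was not tested.

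Marker genes were read against the label. All members have Lyz2 and Csf1r by the gate. Of the 5 genes of the eosinophil list, from the cells for which Ear2 is named, 2 had a UMI in members of each library, and the list summed to 9.39 CPM in tumour and 10.5 CPM in normal adjacent tissue, against 9.23 and 6.47 CPM in C1q-high cells. The granule protein genes Epx and Prg2 had 0 UMIs in members of both libraries, which allows up to 4.69 CPM in tumour and 7.85 CPM in normal adjacent tissue (3 counts over the group). Ccr3, the eotaxin receptor, was past 2-fold higher than in C1q-high cells in both libraries on 2 UMIs in each. Ly6g of neutrophils was at 0. Ear1, Ear6, Ear10, Ear14, Retn and Retnlb had 0 UMIs in members, and Retnlg had 6 UMIs in tumour and 13 in normal adjacent tissue. The cavity macrophage list summed to 10.95 CPM in tumour members and 18.3 CPM in normal adjacent members, against 10.0 and 7.99 CPM in C1q-high cells, with a UMI of 3 of its 7 genes in tumour members and of 1 in normal adjacent members, and with Timd4 at 0. The label describes phagocytes with Retnla or Ear2, since 14 of 39 tumour members and 6 of 19 normal adjacent members had both at 5 UMIs.

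Many members carried transcripts of other lineages. An alternative left out every cell with at least 3 UMIs of the B cell, T cell, natural killer and innate lymphoid, epithelial or fibroblast list. It left 15 of 39 tumour members and 9 of 19 normal adjacent members, or 23 and 10 with Ighm and Ighd not used. Of C1q-high cells that were not members, it left 514 of 2000 in tumour and 363 of 1363 in normal adjacent tissue. Of the C1q-low phagocytes described below, it left 91 of 182 and 86 of 119. A larger share was thus left out of C1q-high cells than of members, and a smaller share of C1q-low phagocytes. C1q-high cells were not held to the Cd3 gate, and depth was not made equal. Of the tumour members, 1 cell alone carried 359 UMIs of the fibroblast list. The neutrophil list stood at 404 CPM in tumour members and 689 CPM in normal adjacent members, against 3492 and 2799 CPM in C1q-high cells, and the T cell list at 79.8 and 73.3 CPM, against 1134 and 1654 CPM. Both lists hold genes that the gate bars from members, so these gaps follow in part from the rule. The natural killer and innate lymphoid list stood at 156 and 458 CPM in members, against 847 and 1285 CPM in C1q-high cells, and reached 93 UMIs in 1 normal adjacent Retnla member. Other lists were higher in members: the endothelial list was at 34.4 and 52.4 CPM, against 20.3 and 17.6 CPM in C1q-high cells, with Vwf and Flt1 past 2-fold higher in both libraries, and the mast cell and basophil list at 18.8 and 26.2 CPM, against 11.1 and 12.3 CPM, with Kit past 2-fold. The part of such transcripts in the results below was not tested beyond that alternative. It did not use the neutrophil, endothelial or mast cell and basophil lists.

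Against the C1q-high cells, the members were set apart by a lysozyme, a pair of chemokines and a matrix protein. Members had Lyz1 at 1098 CPM (1019 to 1183) in tumour and C1q-high cells 23.1 CPM, a ratio of 47.6 (43.1 to 52.6). In normal adjacent tissue members had Lyz1 at 322 CPM and C1q-high cells 16.4 CPM, a ratio of 19.6 (16.0 to 23.9). Ccl6, a CC chemokine of mouse myeloid cells, was at 1760 CPM in tumour members and 175 CPM in C1q-high cells, 10.0-fold higher (9.42 to 10.7), and at 1210 against 138 CPM in normal adjacent tissue, 8.80-fold higher (7.97 to 9.68). Ccl9, its genomic neighbour and likewise a ligand of Ccr1, was 8.37-fold higher in tumour (7.53 to 9.28) and 9.10-fold higher in normal adjacent tissue (7.82 to 10.5). Fn1, the adhesive matrix protein fibronectin, was 14.0-fold higher in tumour at 1244 CPM against 88.9 CPM, and 10.3-fold higher in normal adjacent tissue at 628 CPM against 60.9 CPM.

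Ifitm6, an interferon-induced transmembrane protein gene typical of monocytes, was 11.9-fold and 13.8-fold higher in tumour and normal adjacent members, and Gda, guanine deaminase, 12.4-fold and 10.4-fold higher. F13a1, the A subunit of clotting factor XIII, was at 188 CPM in tumour members against 18.0 CPM in C1q-high cells, a ratio of 10.5 (8.55 to 12.7). It was at 81.2 CPM in normal adjacent members against 16.1 CPM in C1q-high cells, a ratio of 5.03 (3.38 to 7.23). The naming rule sets apart genes of which 1 cell held more than 10%, and every gene named on the higher side fell there. In normal adjacent tissue 1 member held 19.05% of the members' UMIs and the next 15.1%, so a gene spread in proportion to depth would pass that limit too. The highest normal adjacent cell gave 22.1% of Ccl6, 20.1% of Ccl9, 21.9% of Gda and 16.7% of Ifitm6, whereas for Lyz1 in normal adjacent members the highest cell gave 48.8%, and for Fn1 43.8%.

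Shares of cells gave the same order at equal depth. After each cell was thinned to 2000 UMIs, Lyz1 had a UMI in 28.2% of tumour members, 1.81% of C1q-high cells and 0.54% of B cells, and in 15.8%, 1.65% and 0.69% of these cells in normal adjacent tissue. B cells should lack Lyz1, so the last share is background. Before thinning the shares were 38.5%, 8.20% and 1.08% in tumour and 26.3%, 7.78% and 1.02% in normal adjacent tissue, at median depths in B cells of 4664 and 5002 UMIs. Thinning left out 125 C1q-high cells and 1 B cell in tumour, 152 and 7 in normal adjacent tissue, and no member. Ccl6 had a UMI in 84.6% of thinned tumour members, 23.1% of C1q-high cells and 1.62% of B cells.

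Several sets of genes stood higher together in this comparison. A gene was counted when it was past 2-fold in the same direction in both libraries after 0.5 UMIs were added to each sum. Over all genes 4.38% of 12635 measured were higher and 4.29% lower, with medians of 0.01 and 0.06 on the log2 scale in tumour and normal adjacent tissue. In the classical monocyte list, 7 of 10 genes were higher and none lower, with medians of 1.77 and 1.39. Ccr2, the receptor that brings monocytes out of bone marrow, was at 581 CPM in tumour members against 112 CPM in C1q-high cells, a ratio of 5.17 (4.64 to 5.75), and at 395 against 114 CPM in normal adjacent tissue, a ratio of 3.46 (2.92 to 4.07). Plac8 was 3.33-fold and 3.63-fold higher. Vcan was also counted on 8 UMIs in tumour members and 1 UMI in normal adjacent members. Its plain ratio in normal adjacent tissue was 1.73 (0.0429 to 10.1).

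The matrix and clotting list had 8 of 15 genes higher and 1, Plau, lower, with medians of 2.06 in tumour and 1.11 in normal adjacent tissue. Ecm1, extracellular matrix protein 1, was at 191 CPM in tumour members against 8.78 CPM in C1q-high cells and at 73.3 against 10.8 CPM in normal adjacent tissue, ratios of 21.7 (17.6 to 26.8) and 6.77 (4.43 to 9.96). F10, coagulation factor X, was 7.31-fold higher in tumour (5.20 to 10.0) and 5.57-fold higher in normal adjacent tissue (3.56 to 8.36). Thbs1, thrombospondin 1, was 2.40-fold and 2.15-fold higher. The list's medians were 0.45 and 0.37 when every cell was thinned to 2000 UMIs, and 0.19 and 0.22 without cells that carried markers of another lineage, while Fn1 and F13a1 kept ratios past 2-fold under both.

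Genes of alternative activation were higher only in part: 7 of 15 were past 2-fold, Retnla itself among them, and Pdcd1lg2 was lower on 4 UMIs in tumour members and 1 UMI in normal adjacent members. Mrc1, the mannose receptor, was at 325 CPM in tumour members against 98.8 CPM in C1q-high cells, 3.29-fold higher (2.85 to 3.79), and 2.28-fold higher in normal adjacent tissue (1.81 to 2.83). Mgl2, a galactose-binding lectin, was 3.93-fold and 3.77-fold higher. Arg1, like Retnla and Chil3 a classic STAT6 target of mouse macrophages, had 1 UMI in tumour members and 0 in normal adjacent members. Chil3 was among the 7 genes past 2-fold higher, but at only 9.39 and 31.4 CPM in members. Ccl24 had 18 UMIs in tumour members and 1 in normal adjacent members. The list's medians of 1.67 and 1.11 were 0.85 and -0.031 without cells that carried markers of another lineage.

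Nonclassical monocyte genes split by tissue and by gate gene. Of 8 genes 4 were higher and none lower than in C1q-high cells, with medians of 0.60 in tumour members and 2.05 in normal adjacent members. With Retnla members alone the medians were -0.72 and -0.44, and without cells that carried markers of another lineage -0.043 and 3.44. Eno3, for example, was at 18.8 CPM in tumour members against 8.53 CPM in C1q-high cells and at 102 against 8.30 CPM in normal adjacent tissue.

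Antigen presentation genes did not set the members apart from C1q-high cells. None of 11 class II genes was past 2-fold in both libraries, with medians of 0.16 in tumour and -0.09 in normal adjacent tissue. H2-Aa was at 12113 CPM in tumour members and 10837 CPM in C1q-high cells, and at 9664 and 10273 CPM in normal adjacent tissue. The interferon-induced, cell cycle, dissociation stress, hypoxia and lipid-associated macrophage lists also had no gene past 2-fold in both libraries.

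Among the genes lower in members, 11 of the 12 named by the rule were lymphocyte genes: Il17a, Lat, Cd8b1, Cxcr6, Ccl5, Skap1, Rora, Ikzf2, Gimap6, Ablim1 and Gzmb. The gate bars Cd3 from members and not from C1q-high cells, of which 975 of 2015 in tumour failed the Cd3 gate. Ccl5 for example was at 110 CPM in tumour members against 1515 CPM in C1q-high cells. Ms4a7, a tetraspan gene of C1q macrophages, was the other: 167 against 757 CPM in tumour, a ratio of 0.221 (0.181 to 0.267), and 186 against 691 CPM in normal adjacent tissue, a ratio of 0.269 (0.210 to 0.340). Svs5, a secretory gene of the male accessory glands, had ratios of 0.418 and 0.505, and 1 C1q-high cell held 30.1% of its C1q-high UMIs in tumour.

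The comparison was therefore repeated with the 504 tumour and 284 normal adjacent C1q-high cells that passed the same Lyz2, Csf1r, calprotectin and Cd3 gates. Here 3.29% of 8640 genes were higher and 2.29% lower in both libraries. Lyz1 was 236-fold higher in tumour members (165 to 350) and 31.1-fold higher in normal adjacent members (21.4 to 46.2). Ltb4r1, the receptor for leukotriene B4, was at 122 CPM in tumour members against 11.7 CPM in matched C1q-high cells (ratio 10.4, 7.52 to 14.5) and at 136 against 10.4 CPM in normal adjacent tissue (ratio 13.1, 8.46 to 20.6). S100a4, a calcium-binding protein of motile cells, was 7.17-fold and 5.66-fold higher, and Dok2, an adaptor downstream of tyrosine kinases, 11.3-fold and 10.7-fold higher.

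Genes lower in members than in matched C1q-high cells included several that macrophages express. Apoe, apolipoprotein E, was at 7328 CPM in tumour members against 28034 CPM (ratio 0.261, 0.254 to 0.269) and at 10816 against 27093 CPM in normal adjacent tissue (ratio 0.399, 0.387 to 0.412). Ms4a7 had a ratio of 0.166 in each tissue, and Cd72, a C-type lectin shared by B cells and macrophages, ratios of 0.167 and 0.232. Ccl12, a ligand of Ccr2, had ratios of 0.264 in tumour and 0.151 in normal adjacent tissue. Ccl3, an inflammatory CC chemokine, was at 252 against 705 CPM in tumour and 223 against 793 CPM in normal adjacent tissue, and Ccl4 had ratios of 0.410 and 0.197.

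Not all members were low in C1q. Of the tumour members 15 of 39 (38.5%), and of the normal adjacent members 6 of 19 (31.6%), themselves had C1q at 0.5% of UMIs or more.

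**Figure D2:**
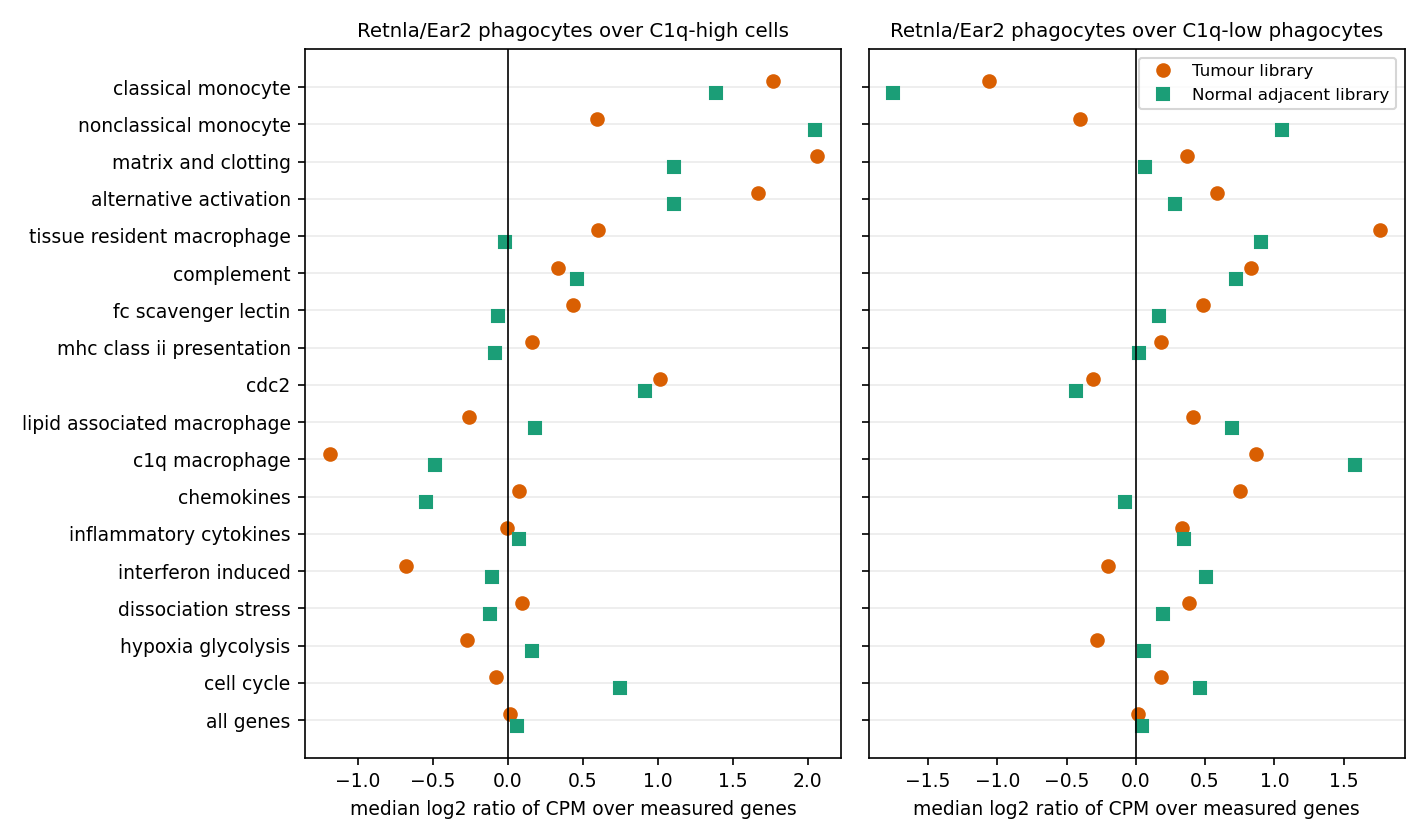
Median log2 ratio of the measured genes of 17 gene lists, and of all genes, for members over C1q-high cells on the left and over C1q-low phagocytes on the right; tumour is drawn as orange circles and normal adjacent tissue as green squares. The classical monocyte list stands at 1.77 and 1.39 on the left and at -1.06 and -1.75 on the right.

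The second reference was the C1q-low phagocytes, 182 tumour and 119 normal adjacent cells. They passed every other gate, had C1q under 0.5% of UMIs and were not members. Members were not held to that limit: 15 of 39 in tumour and 6 of 19 in normal adjacent tissue were at or above it. Members under the limit were not compared with C1q-low phagocytes on their own. Of 6955 genes measured, 1.12% were higher and 1.44% lower in members of both libraries. Lyz1 was at 1098 CPM in tumour members against 34.4 CPM (ratio 31.9, 25.6 to 40.2) and at 322 against 9.01 CPM in normal adjacent tissue (ratio 35.7, 20.8 to 65.8). Fcrls, an Fc receptor-like scavenger gene, was 11.7-fold higher in tumour (9.35 to 14.6) and 9.23-fold higher in normal adjacent tissue (6.56 to 13.1). Pltp, the phospholipid transfer protein, was 7.15-fold and 4.49-fold higher, Clec4b1, a C-type lectin, 5.72-fold and 3.50-fold higher, and Mrc1 4.11-fold and 3.32-fold higher.

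Fn1, Ccl6 and Ccl9 differed less from C1q-low phagocytes than from C1q-high cells. Fn1 was 5.64-fold higher in tumour members (5.06 to 6.29) and 2.83-fold higher in normal adjacent members (2.40 to 3.34), Ccl6 4.39-fold and 2.14-fold, and Ccl9 3.59-fold and 2.46-fold. F13a1 went in opposite directions, with ratios of 1.95 (1.56 to 2.44) in tumour and 0.628 (0.417 to 0.919) in normal adjacent tissue. In the matrix and clotting list 4 of 14 genes were higher and none lower. Timp2, an inhibitor of metalloproteinases, was among them, at 257 against 80.7 CPM in tumour and 217 against 66.1 CPM in normal adjacent tissue.

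Classical monocyte genes stood on the other side of this comparison: none of 10 was higher and 5 were lower. Ly6c2, the surface antigen that defines classical monocytes in mice, was at 110 CPM in tumour members against 344 CPM (ratio 0.318, 0.246 to 0.406) and at 31.4 against 324 CPM in normal adjacent tissue (ratio 0.0969, 0.0497 to 0.171). Plac8 had ratios of 0.382 and 0.378, Ms4a4c of 0.351 and 0.227, Hp, haptoglobin, of 0.437 and 0.187, and Chil3 of 0.118 and 0.158. P2ry10, a receptor gene of lymphoid and myeloid cells, and Mcemp1, a gene of mast cells and monocytes, were also named on this side, with ratios of 0.426 and 0.391 in tumour and 0.168 and 0.476 in normal adjacent tissue. The list's medians of -1.06 and -1.75 were -3.28 and -0.87 without cells that carried markers of another lineage.

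Genes that single cells of the C1q-low phagocytes held in part were lower in members as well. Ccl17, a chemokine of dendritic cells, had ratios of 0.0690 in tumour and 0.0908 in normal adjacent tissue, Ifitm1 of 0.287 and 0.262, Ifi205 of 0.256 and 0.251, and Wfdc2 of 0.243 and 0.123. Without cells that carried markers of another lineage Wfdc2 turned to log2 ratios of 0.67 and 0.83. Mzb1, a gene of plasma cells, had 12 UMIs in tumour members and 0 in normal adjacent members, against 372 and 225 UMIs in C1q-low phagocytes. In normal adjacent tissue 1 C1q-low cell held 89.8% of its UMIs.

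Members lay above the C1q-high cells and below the C1q-low phagocytes for Plac8, Hp and Chil3 in both libraries. Among dendritic cell genes Cd209a was likewise between them. Members had 3.67-fold and 3.57-fold more Cd209a than C1q-high cells, and ratios of 0.480 and 0.445 to C1q-low phagocytes. The members hold cells from both sides of the C1q limit, and the part of that mix in these positions was not tested.

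**Figure D3:**
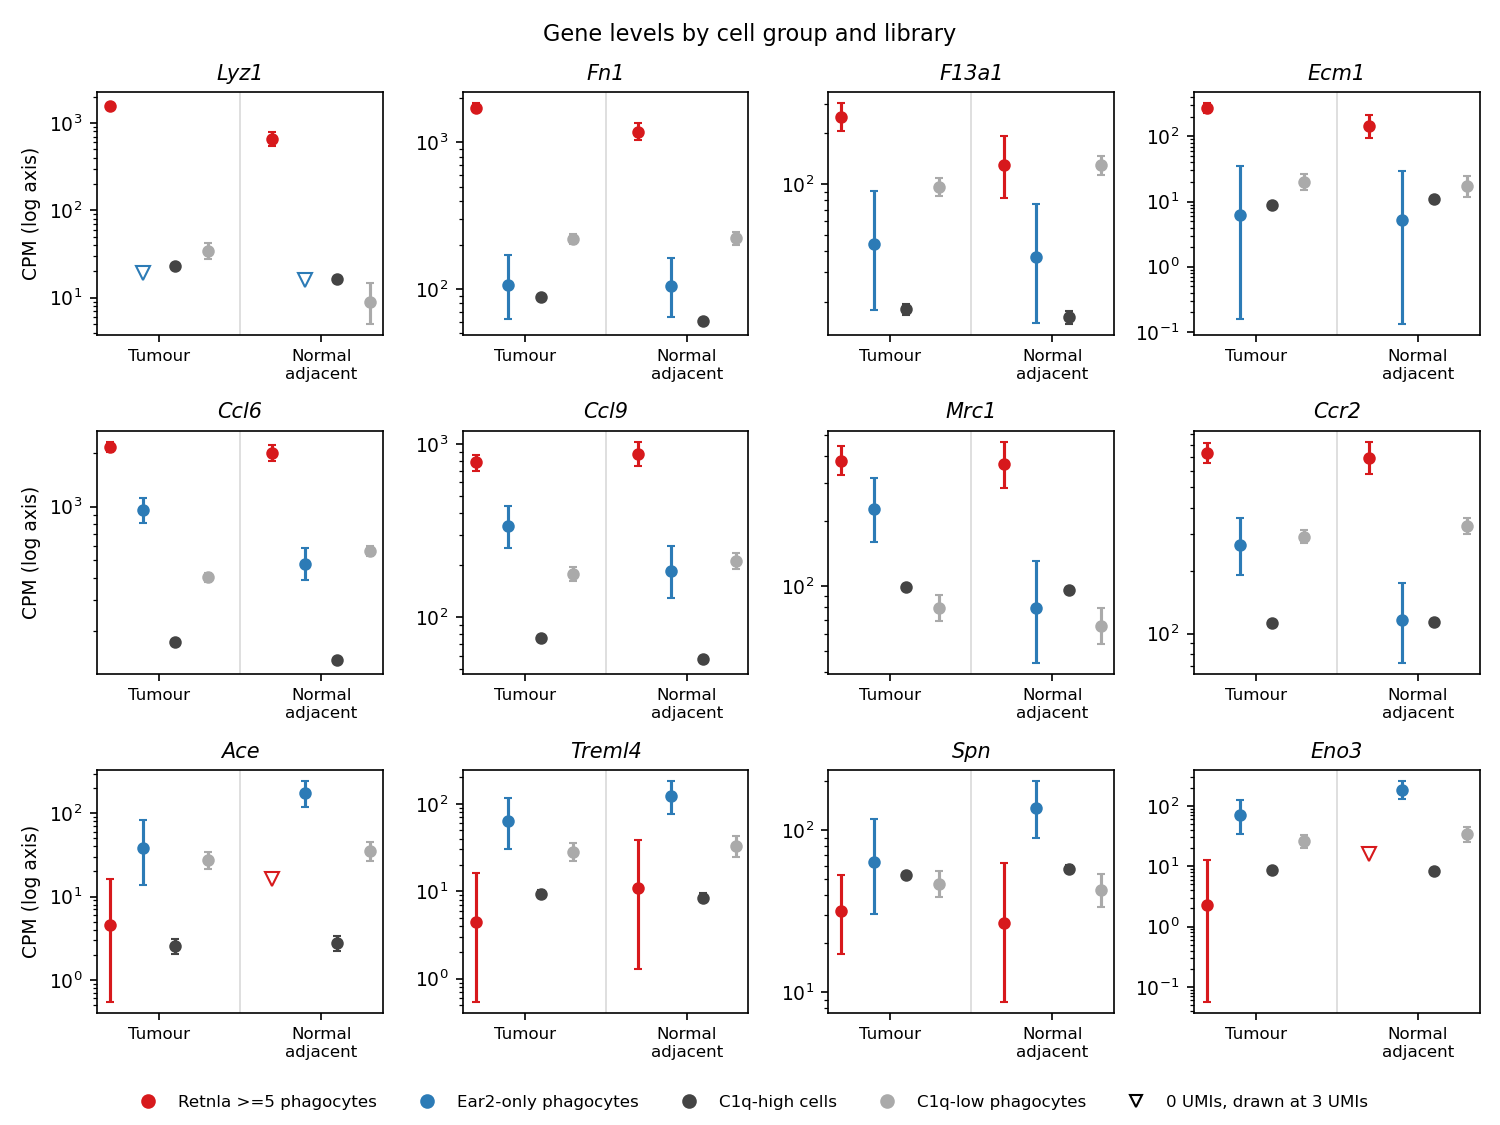
Levels of 12 genes in CPM (logarithmic axis, exact 95% Poisson intervals) in Retnla members, Ear2-only members, C1q-high cells and C1q-low phagocytes, with tumour and normal adjacent tissue side by side; open triangles stand for 0 UMIs and are drawn at the 3 UMIs that a count of 0 allows. Lyz1 is at 1570 and 661 CPM in Retnla members and at 0 UMIs in Ear2-only members of both libraries.

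Within the members, Lyz1, Fn1 and several further genes differed between Retnla members and Ear2-only members. This split uses the gate genes, so only other genes are read here. Of 2566 genes measured, 1.21% were higher and 1.71% lower in Retnla members of both libraries. The Ear2-only members of normal adjacent tissue held 189719 UMIs, of which 1 cell gave 72752 and another 52872. These cells had C1q at 1.46% and 1.07% of UMIs, and their part in the ratios of normal adjacent tissue was not tested. Lyz1 was at 1570 CPM in the 27 Retnla members of the tumour and at 0 UMIs in the 11 Ear2-only members, at least 82.8-fold higher by the floor of 3 counts over the group. In normal adjacent tissue it was at 661 CPM in the 9 Retnla members and at 0 UMIs in the 9 Ear2-only members, at least 41.8-fold higher. At least 10 Lyz1 UMIs were found in 10 tumour members and 2 normal adjacent members, every one of them a Retnla member.

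Some matrix genes were likewise higher in Retnla members. Fn1 was at 1728 CPM in Retnla members of the tumour and 107 CPM in Ear2-only members (ratio 16.1, 9.97 to 27.7), and at 1182 and 105 CPM in normal adjacent tissue (ratio 11.2, 7.09 to 18.7). Ecm1 had 121 UMIs in Retnla members and 1 UMI in Ear2-only members of the tumour (ratio 43.1, 7.58 to 1714), and 27 UMIs and 1 UMI in normal adjacent tissue (ratio 27.5, 4.54 to 1127). Mmp12, macrophage elastase, was at least 5.22-fold higher in tumour and at least 10.9-fold higher in normal adjacent tissue. In the whole list 4 of 9 genes were higher and none lower.

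Ccr2 was 2.74-fold higher in Retnla members of the tumour (1.99 to 3.88) and 5.98-fold higher in those of normal adjacent tissue (3.78 to 9.87). Cfp, properdin of the alternative complement pathway, was 2.93-fold and 9.30-fold higher, Ccl6 2.26-fold and 4.15-fold, Ccl9 2.34-fold and 4.78-fold, and Pltp 2.41-fold and 6.82-fold higher.

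Nonclassical monocyte genes were higher in the Ear2-only cells and were found in Retnla members too. The list summed to 344 CPM in Retnla members and 967 CPM in Ear2-only members of the tumour, and to 317 and 1418 CPM in normal adjacent tissue. At least 3 of its UMIs were found in 17 of 27 Retnla members and 10 of 11 Ear2-only members of the tumour, and in 5 of 9 and 9 of 9 in normal adjacent tissue. Of the 4 genes of this list that were measured in both libraries, 3 were lower in Retnla members (Spn, Itgal and Pglyrp1) and none was higher. Ace, angiotensin-converting enzyme, had 2 UMIs in Retnla members and 6 in Ear2-only members of the tumour, and 0 and 33 UMIs in normal adjacent tissue. Eno3, an enolase, had 1 and 11 UMIs in tumour and 0 and 35 UMIs in normal adjacent tissue, and Treml4, an innate receptor, had 2 and 10 UMIs in tumour and 2 and 23 in normal adjacent tissue. Gngt2, a G protein gamma subunit, was at 65.2 CPM in Retnla members against 417 CPM in Ear2-only members of the tumour (ratio 0.156, 0.0974 to 0.245), and at 91.4 against 638 CPM in normal adjacent tissue (ratio 0.143, 0.0808 to 0.239). Pou2f2, a transcription factor, had ratios of 0.166 and 0.0962.

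**Figure D4:**
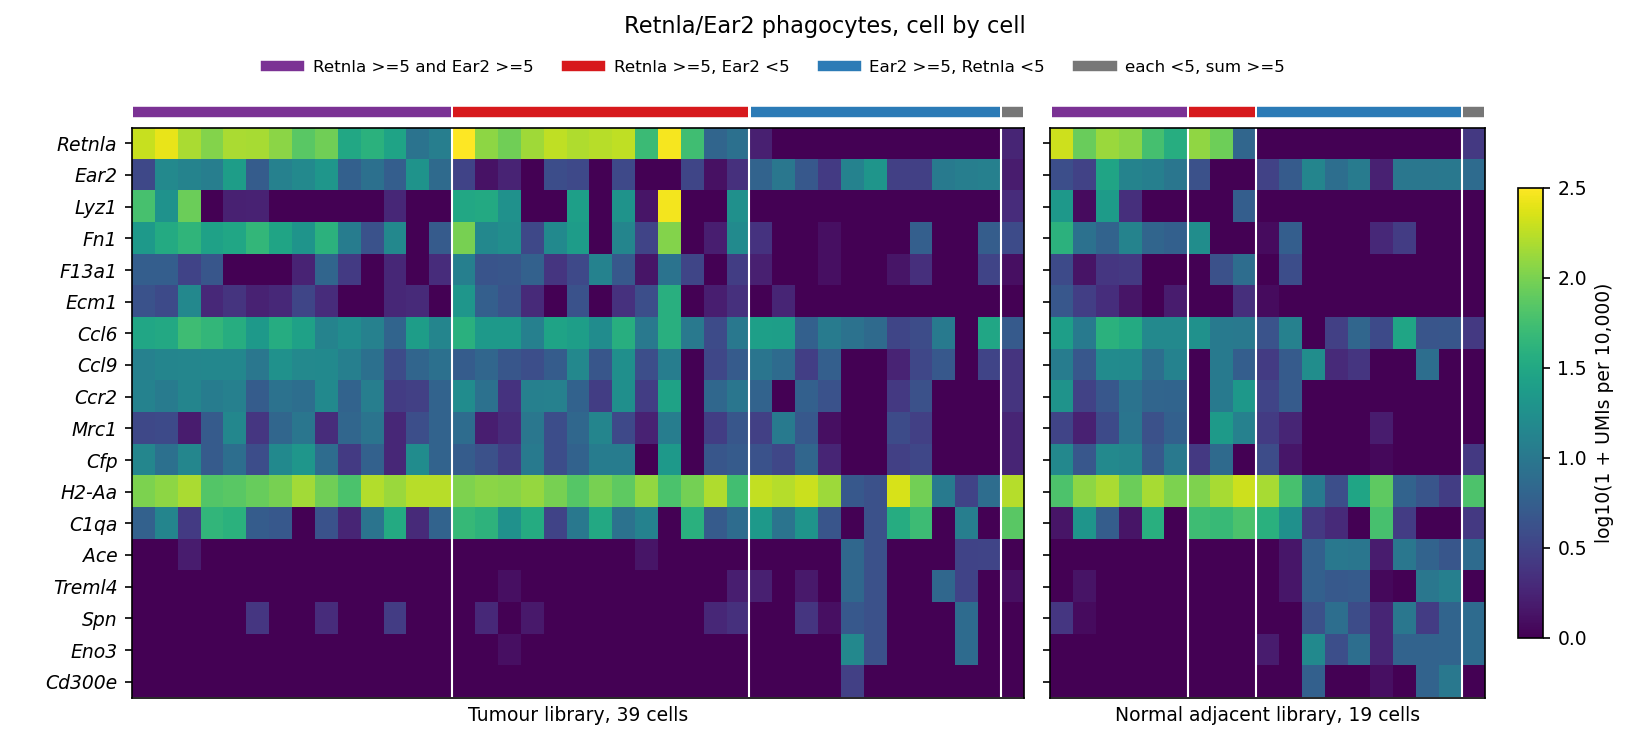
UMIs per 10,000 of 18 genes (rows, colour on a log10(1 + value) scale) in each of the 39 tumour members on the left and 19 normal adjacent members on the right, with cells grouped by the gate gene that reached 5 UMIs. Fn1 runs through most cells of the Retnla groups and Lyz1 through some of them, whereas Ace, Treml4 and Eno3 lie mainly in part of the Ear2-only group.

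The Ear2-only cells were themselves mixed. H2-Aa, H2-Ab1, H2-Eb1 and Cd74 together made up 2.55 to 8.70% of UMIs in the Retnla members of the tumour and 3.10 to 10.9% in those of normal adjacent tissue. In Ear2-only members the range ran from 0.108 to 9.81% in tumour and from 0.0546 to 6.77% in normal adjacent tissue, with 4 of 11 and 5 of 9 cells under 1%. Cells with UMIs of at least 2 of the genes Ace, Treml4, Spn, Eno3 and Cd300e were 4 of 11 Ear2-only members in tumour and 8 of 9 in normal adjacent tissue, against 2 of 27 and 1 of 9 Retnla members. Of those Ear2-only cells 3 in tumour and 5 in normal adjacent tissue also had class II under 1%. Such cells were shallow, with 3146 to 5119 UMIs in tumour and 5492 to 9976 UMIs in normal adjacent tissue for the cells under 1%, and the part of depth in the split was not tested.

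Between the tissues, 12.9% of 5194 genes measured were past 1.5-fold higher and 12.8% lower in tumour members than in normal adjacent members. In C1q-high cells the shares were 5.39% and 4.65% of genes. The members' sums rest on 639093 UMIs in tumour and 381945 in normal adjacent tissue, and those of C1q-high cells on 40215434 and 31681344. Depth was not made equal, so these shares do not compare the cell groups. The nonclassical monocyte list had 6 of 7 genes lower and none higher in tumour members, with a median of -1.35, which was -3.07 without cells that carried markers of another lineage. The tissue-resident macrophage list had 7 of 10 genes higher and none lower, with a median of 0.73, among them Folr2, a folate receptor, with 25 UMIs in tumour members and 2 in normal adjacent members (ratio 7.47, 1.86 to 65.1). Chemokines had 9 of 16 genes higher and 2 lower, and the interferon-induced list 1 of 10 higher and 5 lower with a median of -0.56, which was 0.79 when each gene's highest cell was left out and 0.55 with every cell weighted equally. The median of all genes was -0.04. The tissues also differ in the makeup of their members, as given above, and the 1 normal adjacent member with 72752 UMIs takes a large part of the 381945 UMIs of its group.

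Lyz1 was 3.41-fold higher in tumour members (2.81 to 4.17), and 2.38-fold higher among Retnla members alone (1.96 to 2.90). In C1q-high cells the ratio was 1.41 (1.26 to 1.57). The 4 highest cells held 72.2% of the Lyz1 UMIs of tumour members and 99.2% of those of normal adjacent members, so the Lyz1 ratios rest on few cells. Fn1 was at 1244 CPM in tumour members against 628 CPM in normal adjacent members, a ratio of 1.98 (1.71 to 2.30) that was 1.46 (1.26 to 1.71) among Retnla members. F13a1 had ratios of 2.31 (1.55 to 3.55) and 1.95 (1.25 to 3.18). On the log2 scale these differences over all members were 1.77 for Lyz1, 0.98 for Fn1 and 1.19 for F13a1. With every cell weighted equally they were 2.54, 1.65 and 1.11, and without cells that carried markers of another lineage 1.52, 0.64 and 0.13. Ccl9 differed little, with 1.22 (1.03 to 1.45) over all members and 0.888 (0.736 to 1.08) among Retnla members. Retnla, a gate gene, was 1.53-fold higher over all members and 1.07-fold among Retnla members.

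Other genes named by rule as higher in tumour members were not held by any single cell. Ahnak, a scaffold protein, was at 889 CPM in tumour members against 456 CPM in normal adjacent members, a ratio of 1.95 (1.64 to 2.33). Antxr2, an anthrax toxin receptor that binds matrix, had 63 UMIs against 11 (ratio 3.42, 1.79 to 7.20), and 1.53 (0.719 to 3.65) among Retnla members. Zfp36, which destabilises cytokine mRNAs, had a ratio of 1.84 (1.60 to 2.13), and 4.36 (3.33 to 5.79) among Retnla members. The dissociation stress list, which holds Zfp36, moved with it: among Retnla members 9 of 12 genes were past 1.5-fold higher in tumour and none lower, with a median of 0.92, where 18.1% of 3851 genes were higher and 13.1% lower. Over all members 2 of the 12 were higher and 1 lower, with a median of 0.21, and the part of dissociation in these ratios was not tested. Tnfaip3, an inhibitor of nuclear factor kappa B signalling, had a ratio of 1.71 (1.31 to 2.26), H2-DMa, which loads class II peptides, 1.51 (1.31 to 1.74), and Rbpj, the nuclear effector of Notch, 1.81 (1.35 to 2.47). Wnk1, a kinase of salt balance, Nav1, a cytoskeletal protein, and Kctd12 had ratios of 1.95, 2.57 and 1.71.

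The widest gaps between the tissues lay in single cells. In tumour, 1 Retnla member with 26946 UMIs and 135 Retnla UMIs held 308 of 313 UMIs of Dcn, the matrix proteoglycan decorin, against 2 UMIs in normal adjacent members. The same cell held 210 of 212 UMIs of Cxcl13, a B cell chemokine, all 101 UMIs of Gpx3, 79 of 81 UMIs of Serping1 and 57 of 79 UMIs of Il12b. Dcn, Gpx3 and Serping1 are genes that fibroblasts make in many tissues, and the cell's 359 UMIs of the fibroblast list are given above. Cxcl13, Gpx3, Serping1 and Il12b had 0 UMIs in normal adjacent members. The floors were at least 42.2-fold, 20.1-fold, 16.1-fold and 15.7-fold higher in tumour. Those of Cxcl13, Gpx3 and Serping1 rest on that cell, whereas 22 of the Il12b UMIs lay in other tumour members. Cxcl1, a neutrophil attractant, had 143 UMIs against 6 (ratio 14.2, 6.39 to 39.5), of which another Retnla-only tumour cell held 61.

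In normal adjacent tissue, the Ear2-only member with 72752 UMIs held 107 of 116 UMIs of Rsad2, an antiviral interferon target, 71 of 85 UMIs of Spp1, osteopontin, 60 of 83 UMIs of Acod1, which makes itaconate, and 69 of 75 UMIs of Gzmc. The ratios of tumour over normal adjacent members were 0.191 for Rsad2, 0.232 for Spp1, 0.194 for Acod1 and 0.0877 for Gzmc. Another, Retnla-only, cell held 55 of the 60 Gzma UMIs of the normal adjacent members, against 1 UMI in tumour members, and 85 of their 184 Ccl5 UMIs, against 70 in tumour members, a ratio of 0.227 (0.170 to 0.301). The Ear2-only member with 72752 UMIs held 80 of the other Ccl5 UMIs. Granzymes belong to killer lymphocytes. The gate limits Cd3 alone, so whether these barcodes also hold a lymphocyte was not tested.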

How the data were processed

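Mouse prostate tumour and normal adjacent tissue were measured by droplet single-cell RNA sequencing, 1 library each. The deposited matrices hold UMI counts per gene and barcode, not normalized, made by the authors with Cell Ranger 4.0.0, per the file headers. R 4.0.3 and Seurat 3.2.2 are named in the submitters' processing notes, which also list the human build GRCh38 although the features are mouse genes. Mouse build, annotation and how cells were called: not given in the sources used here.

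Barcodes with at least 200 genes and at most 20% mitochondrial UMIs were kept, and members were gated as described above. No doublet caller was run. An alternative left out cells with at least 3 UMIs of the B cell, T cell, natural killer and innate lymphoid, epithelial or fibroblast list. UMIs were summed per group and scaled to CPM, with exact Poisson intervals for levels, exact conditional binomial intervals for ratios, Clopper-Pearson intervals for shares and Newcombe intervals for differences (95%, counting error only). Log2 ratios had 0.5 UMIs added to each sum, and a gene counted as measured with at least 20 UMIs over both groups. Where a group had 0 UMIs, ratios used a floor of 3 counts over that group. Shares were thinned to 2000 UMIs per cell (seed 1). No test between tissues is possible with 1 library per group. B cells, used for background, had at least 5 UMIs of Cd79a, Cd79b and Ms4a1 together, no Csf1r and at most 1 UMI of Cd3.

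Members and the 37 gene lists (309 of 311 genes in the files) were chosen with earlier results of these data known. Genes were named by the bound of the ratio nearest 1, up to 12 in each direction against C1q-high cells, 6 against C1q-low phagocytes and 10 between tissues, with at least 50 UMIs, 50 CPM and no cell over 10% of the gene, plus up to 6 that single cells held. The matched C1q-high comparison, the split by gate gene and the naming of their genes, as well as list genes and family genes given beside them, were chosen after values were seen. Alternatives are given in the closing section. The ratio and interval code was tested on simulated data. Python 3.11.15, NumPy 2.4.6, SciPy 1.17.1, pandas 2.3.3 and matplotlib 3.10.9 were used. Promoter sequences are from RefSeq (GRCm38.p6).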

Additional observations from a re-analysis of the deposited data

Results flagged for a closer look

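For some of the genes named, the gate gene Retnla among them, members and C1q-high cells went in opposite directions between the tissues. Apart from Retnla, these genes were named by their ratios in members. The share of all genes with opposite directions was not measured, so their number is not a result. With 1 library per tissue each direction rests on a single pair of libraries, and the difference between the cell groups was not tested.

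Retnla, Ahnak and Tnfaip3 were higher in tumour members and lower in tumour C1q-high cells. On the log2 scale of tumour over normal adjacent tissue, Retnla was 0.61 in members and -0.09 in C1q-high cells, Ahnak 0.96 and -0.12, and Tnfaip3 0.77 and -0.08. Retnla chose the members, so its value in them depends on the gate and is a description only. Among Retnla members alone, Retnla was 0.10.

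Cxcl13 was at 5.4 in members, computed against the 3 counts that a count of 0 in normal adjacent members allows, and at -0.97 in C1q-high cells. A single tumour member held 99.1% of its UMIs.

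Rsad2, Acod1 and Spp1 were lower in tumour members and higher in tumour C1q-high cells. Rsad2 was -2.38 in members and 0.56 in C1q-high cells, Acod1 -2.35 and 0.41, and Spp1 -2.09 and 0.31. The same normal adjacent cell, the one with 72752 UMIs, held 92.2% of the Rsad2 UMIs, 72.3% of the Acod1 UMIs and 83.5% of the Spp1 UMIs of its group. Without each gene's highest cell, Rsad2 was 0.79 and Spp1 0.014.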

How the results depend on the processing

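Among kept cells, the tumour share of members minus the normal adjacent share kept its sign under all 11 alternatives. It ran from 0.0408 percentage points without the Cd3 gate to 0.367 without the S100a8 and S100a9 gate. Its interval excluded 0 with at least 10 UMIs of Retnla and Ear2 (0.0245 to 0.376), with cells thinned before gating (0.0240 to 0.335), without the S100a8 and S100a9 gate (0.121 to 0.612) and for Retnla members alone (0.0330 to 0.375), and included 0 otherwise. No paired analysis was possible because each tissue has 1 library; for the same reason no replicate could be left out. For 50 values an alternative gave no direction, as both groups had 3 UMIs or fewer or the floor left it undecided.

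Against C1q-high cells, 554 genes were past 2-fold higher and 542 lower. The higher count was 5564 with no filter on low counts, 284 against matched C1q-high cells, 1031 for members with C1q under 0.5% and 994 for Retnla members. The lower count was 243 after thinning and 198 against matched cells. Against C1q-low phagocytes, 78 were higher and 100 lower. The higher count was 122 with cells weighted equally, 25 after thinning and 543 with no filter, and the lower count 30 after thinning, 154 with at least 10 UMIs of the gate genes and 290 with no filter. Between tissues, 672 genes were past 1.5-fold higher and 666 lower. The counts were 120 and 133 after thinning, 302 and 440 without cells with markers of another lineage, 3783 and 3082 with no filter, and 1032 and 283 with each gene's highest cell left out. The cause of these changes was not tested.

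Of the log2 values whose interval excluded 0, and of the list medians past 2-fold between cell groups or 1.5-fold between tissues, those that changed sign were these, and the cause was not tested. After thinning, Ccl9 was -0.36 and Rsad2 0.89 between tissues. Without cells with markers of another lineage, Gzmb against C1q-high cells was 0.17 in tumour and 1.14 in normal adjacent tissue, the alternative activation median -0.031 in normal adjacent tissue, Wfdc2 against C1q-low phagocytes 0.67 and 0.83, and Rsad2 between tissues 1.27. With at least 10 UMIs of the gate genes, the nonclassical monocyte median against C1q-low phagocytes was -1.66 in normal adjacent tissue, and Gzmc was 0.59 and Rsad2 1.26 between tissues. Against matched C1q-high cells, Il17a was 1.06 and Cd8b1 0.95 in tumour, and Cxcr6 0.27 and Ccl5 0.37 in normal adjacent tissue. With each gene's highest cell left out, Rsad2 was 0.79 and Spp1 0.014. For Retnla members alone, the nonclassical monocyte median against C1q-high cells was -0.44 in normal adjacent tissue, and Ccl9 was -0.17, Gzmc 0.67 and Rsad2 1.23 between tissues. Smaller values changed sign as well: the interferon-induced median between tissues, -0.56, was 0.55 with cells weighted equally, 2.33 without cells with markers of another lineage, 0.96 with at least 10 UMIs of the gate genes and 1.41 for Retnla members. In tumour the nonclassical monocyte median against C1q-high cells, 0.60, was -0.043 without cells with markers of another lineage, -0.76 with at least 10 UMIs and -0.72 for Retnla members, and against C1q-low phagocytes, -0.40, it was 0.20 after thinning. Of 1527 values of genes and lists under alternatives, 109 changed sign, 89 of them list medians and 20 single genes. Of those 109, 88 were values not past the limits named above.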

Other observations

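Dendritic cell genes were partly shared by the members. Against C1q-high cells, 3 of 9 genes of type 2 dendritic cells (Cd209a, Irf4 and Mgl2) were past 2-fold higher in both libraries. So were 2 of 5 genes of type 1 dendritic cells (Xcr1 and Batf3), and none of either list was lower. Over all genes 4.38% were higher and 4.29% lower. Against C1q-low phagocytes no gene of the 2 lists was past 2-fold higher in both libraries, while Cd209a and Flt3 were lower. Batf3, a transcription factor of type 1 dendritic cells, was at 110 CPM in tumour members against 29.0 CPM in C1q-high cells, a ratio of 3.77 (2.92 to 4.80), and at 52.4 against 25.8 CPM in normal adjacent tissue, a ratio of 2.03 (1.23 to 3.15). Flt3, the receptor for the growth factor of dendritic cells, had ratios of 1.39 (0.663 to 2.58) and 1.36 (0.438 to 3.21) to C1q-high cells, and of 0.239 (0.113 to 0.451) and 0.411 (0.128 to 1.02) to C1q-low phagocytes. Genes of migratory dendritic cells were lower than in C1q-low phagocytes, 3 of 4 (Fscn1, Ccl22 and Il4i1), with none higher. Over all genes in that comparison 1.12% were higher and 1.44% lower.

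Adgre1, the F4/80 antigen of mouse macrophages, lay between the reference groups. It was at 158 CPM in tumour members and 157 CPM in normal adjacent members. The ratios to C1q-high cells were 0.608 (0.495 to 0.739) and 0.699 (0.533 to 0.901). Those to C1q-low phagocytes were 1.85 (1.45 to 2.35) and 1.66 (1.21 to 2.24). The part of members with C1q at 0.5% of UMIs or more in this position was not tested. Mki67, a gene of dividing cells, had 24 UMIs in tumour members, of which a single Retnla-only cell with 282 Retnla UMIs held 11, and 23 UMIs in normal adjacent members, of which the cell with the most Retnla (543 UMIs) held 11.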
